A study of Homo sapiens with 9 samples.

Results

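The DLX genes are the human counterparts of the fly gene Distal-less and encode homeodomain transcription factors. The 6 members, DLX1 to DLX6, were taken by symbol from both count tables of the series, in which they are 6 of 18970 gene symbols. They lie in the genome as 3 pairs of neighbours, DLX1 with DLX2, DLX3 with DLX4 and DLX5 with DLX6. Members were picked by symbol and by no measured value, although the family was chosen with earlier results of these data known.

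In the pharyngeal arches, cranial neural crest reads its position along the upper to lower jaw axis partly from which DLX genes it expresses. DLX1 and DLX2 are on in the crest of both the upper and the lower jaw, DLX5 and DLX6 mark the lower jaw under endothelin signalling, and DLX3 and DLX4 are known from the most distal arch and from surface ectoderm and its appendages. Outside the face, the same genes act in forebrain interneurons, limb buds and bone.

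The series followed newly made RNA after acute loss of SOX9, the transcription factor of neural crest and cartilage, in cranial neural crest cells (CNCCs) differentiated from the human embryonic stem cell line H9. All cells, controls included, carried a degron tag on SOX9 (an FKBP12 variant with mNeonGreen and V5), through which the small molecule dTAGV-1 sends the protein to degradation. SLAM-seq marked new RNA with 4-thiouridine (4sU, 100 uM) for 2 h, and after alkylation the label was read as T>C conversions in libraries of the 3′ ends of transcripts. The 9 samples were 3 at 0h (vehicle DMSO), 3 at 3h and 3 at 24h of 500 nM dTAGV-1, with labelling begun 1 h and 22 h after the compound in the treated groups. The labels give a relative SOX9 level of 100 at 0h and 0 at 3h and 24h, and SOX9 protein itself was not analysed here.

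Each time held the same 3 cultures, S9CC13_R6, S9CC47_R5 and S9CC47_R6, named after clone (S9CC13 or S9CC47) and differentiation batch (R5 or R6). The sample named S9CC47_R5_0h, for example, is clone S9CC47 of batch R5 at 0h. Batch R5 is thus 1 culture of 1 clone, and a culture is 1 differentiation, so that a difference between cultures has no replicate culture behind it.

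Libraries held 16955633 to 28782678 total reads and 3130673 to 5475800 T>C reads, so T>C reads were 15.9% to 21.3% of a library. Levels below are CPM, the reads of a gene scaled to 1000000 reads of the same kind in each library, which are not divided by length because the kit reads transcript ends, and a level is set only against the same gene in other samples. Of 12 cranial neural crest markers, 11 reached 1 CPM in all 9 samples, the exception being SOX10 with 10 reads in all. Markers of surface ectoderm, which also expresses DLX3, were close to 0, with KRT14 at 0 in all samples, TP63, KRT5 and CDH1 at 4, 1 and 2 reads over the 9 samples, and GATA3 the most read at a mean of 0.646 CPM. Of the pluripotency markers, LIN28A and DPPA4 were read at means of 294 and 37.9 CPM, and POU5F1 had 1 read in all.

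Of the 6 members, 3 were measured well enough to be tested. DLX1, DLX2 and DLX3 gave 781, 490 and 771 total reads over the 9 samples, DLX4 gave 102, and DLX5 and DLX6 gave 1 and 9. A gene entered the tests when it reached 1 CPM in at least 3 samples, which DLX1 and DLX3 did in 9 samples, DLX2 in 7 and the other 3 members in 0 of the 9 in total reads.

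DLX1, an early arch and forebrain homeodomain factor, spans chr2:172084740-172089677 on the plus strand of hg38. Its partner DLX2, which shares most of its known sites of expression, spans chr2:172099438-172102900 on the minus strand, and 9760 bases lie between the 3′ ends of the pair. RefSeq promoter entries (GRCh38.p14) were found for 3 of the 6 members. The 250 bases before the RefSeq start of DLX1 and of DLX2 are shown because the levels of these neighbours followed one another across samples, as described below. That of DLX1 is chr2:172085257-172085506 on the plus strand, inside the span that GENCODE gives the gene, and that of DLX2 is chr2:172102901-172103150 on the minus strand.
DLX1: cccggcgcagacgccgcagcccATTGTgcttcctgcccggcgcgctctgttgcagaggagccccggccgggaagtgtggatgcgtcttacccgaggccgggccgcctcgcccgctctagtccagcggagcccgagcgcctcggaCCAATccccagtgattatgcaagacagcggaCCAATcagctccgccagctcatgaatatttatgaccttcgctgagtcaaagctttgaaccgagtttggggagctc
DLX2: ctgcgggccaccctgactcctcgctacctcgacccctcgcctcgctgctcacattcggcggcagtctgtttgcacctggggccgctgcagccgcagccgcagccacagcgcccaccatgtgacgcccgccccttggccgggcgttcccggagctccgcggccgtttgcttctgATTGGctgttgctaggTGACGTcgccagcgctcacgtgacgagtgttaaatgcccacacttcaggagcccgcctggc
Capitals mark matches to 5 motifs searched on both strands. The SOX core searched was ACAAT, the homeodomain core was TAATTA, the motif of the factor NF-Y was CCAAT, the box near some start sites was TATAAA, and the CREB core was TGACGT. DLX1 held 1 ACAAT and 2 CCAAT, and DLX2 held 1 CCAAT and 1 TGACGT. Among 35116 RefSeq promoters, a window of this length held ACAAT in 24.6%, TAATTA in 4.35%, CCAAT in 32%, TATAAA in 10.7% and TGACGT in 7.1%. These matches describe the letters and are not evidence of binding.

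In total reads at 0h, DLX1 stood at 1.87 CPM in S9CC13_R6, 8.02 in S9CC47_R5 and 2.05 in S9CC47_R6. Samples at 3h gave 2.49, 5.95 and 3.09 CPM in the same order, and the 24h samples gave 3.16, 5.80 and 3.97 CPM. S9CC47_R5 was the highest of the 3 cultures at every time, and its lowest sample lay above every sample of batch R6. In T>C reads the DLX1 values were 4.29, 22.9 and 6.29 CPM before treatment, 2.56, 16.5 and 7.77 CPM after 3h, and 7.16, 15.7 and 12.97 CPM after 24h. The order of the cultures was thus S9CC13_R6, S9CC47_R6 and S9CC47_R5 at each time for both kinds of reads, and also in T>C reads every sample of S9CC47_R5 lay above every sample of batch R6.

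DLX2 was likewise highest in S9CC47_R5 at every time. In total reads the cultures, in that same order, gave 1.26, 4.25 and 0.903 CPM at 0h, 0.661, 3.86 and 1.85 CPM after 3h and 1.74, 5.54 and 2.76 CPM after 24h. In T>C reads they gave 4.04, 16.4 and 3.14 CPM untreated, 1.60, 15.1 and 8.34 CPM after 3h and 7.39, 21.6 and 11.3 CPM after 24h. No DLX2 sample of batch R6 reached the lowest sample of S9CC47_R5, in either kind of reads. The lowest value, in S9CC13_R6 at 3h, rested on 13 total reads of which 5 carried a conversion.

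DLX3, a factor of epidermis, hair, teeth and bone, spans chr17:49990005-49995224 on the minus strand. In total reads the cultures gave 2.95, 6.31 and 3.33 CPM untreated (S9CC13_R6 first, then S9CC47_R5, then S9CC47_R6), 3.10, 5.28 and 2.08 CPM after 3h and 3.89, 4.25 and 3.85 CPM after 24h. In T>C reads the values were 3.79, 10.3 and 6.47 CPM untreated, 5.75, 10.1 and 2.59 CPM after 3h and 5.78, 8.11 and 8.22 CPM after 24h. S9CC47_R5 was again highest in total reads at all 3 times, but at 24h the cultures came together, and in T>C reads at 24h S9CC47_R6 was level with it.

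**Figure D1:**
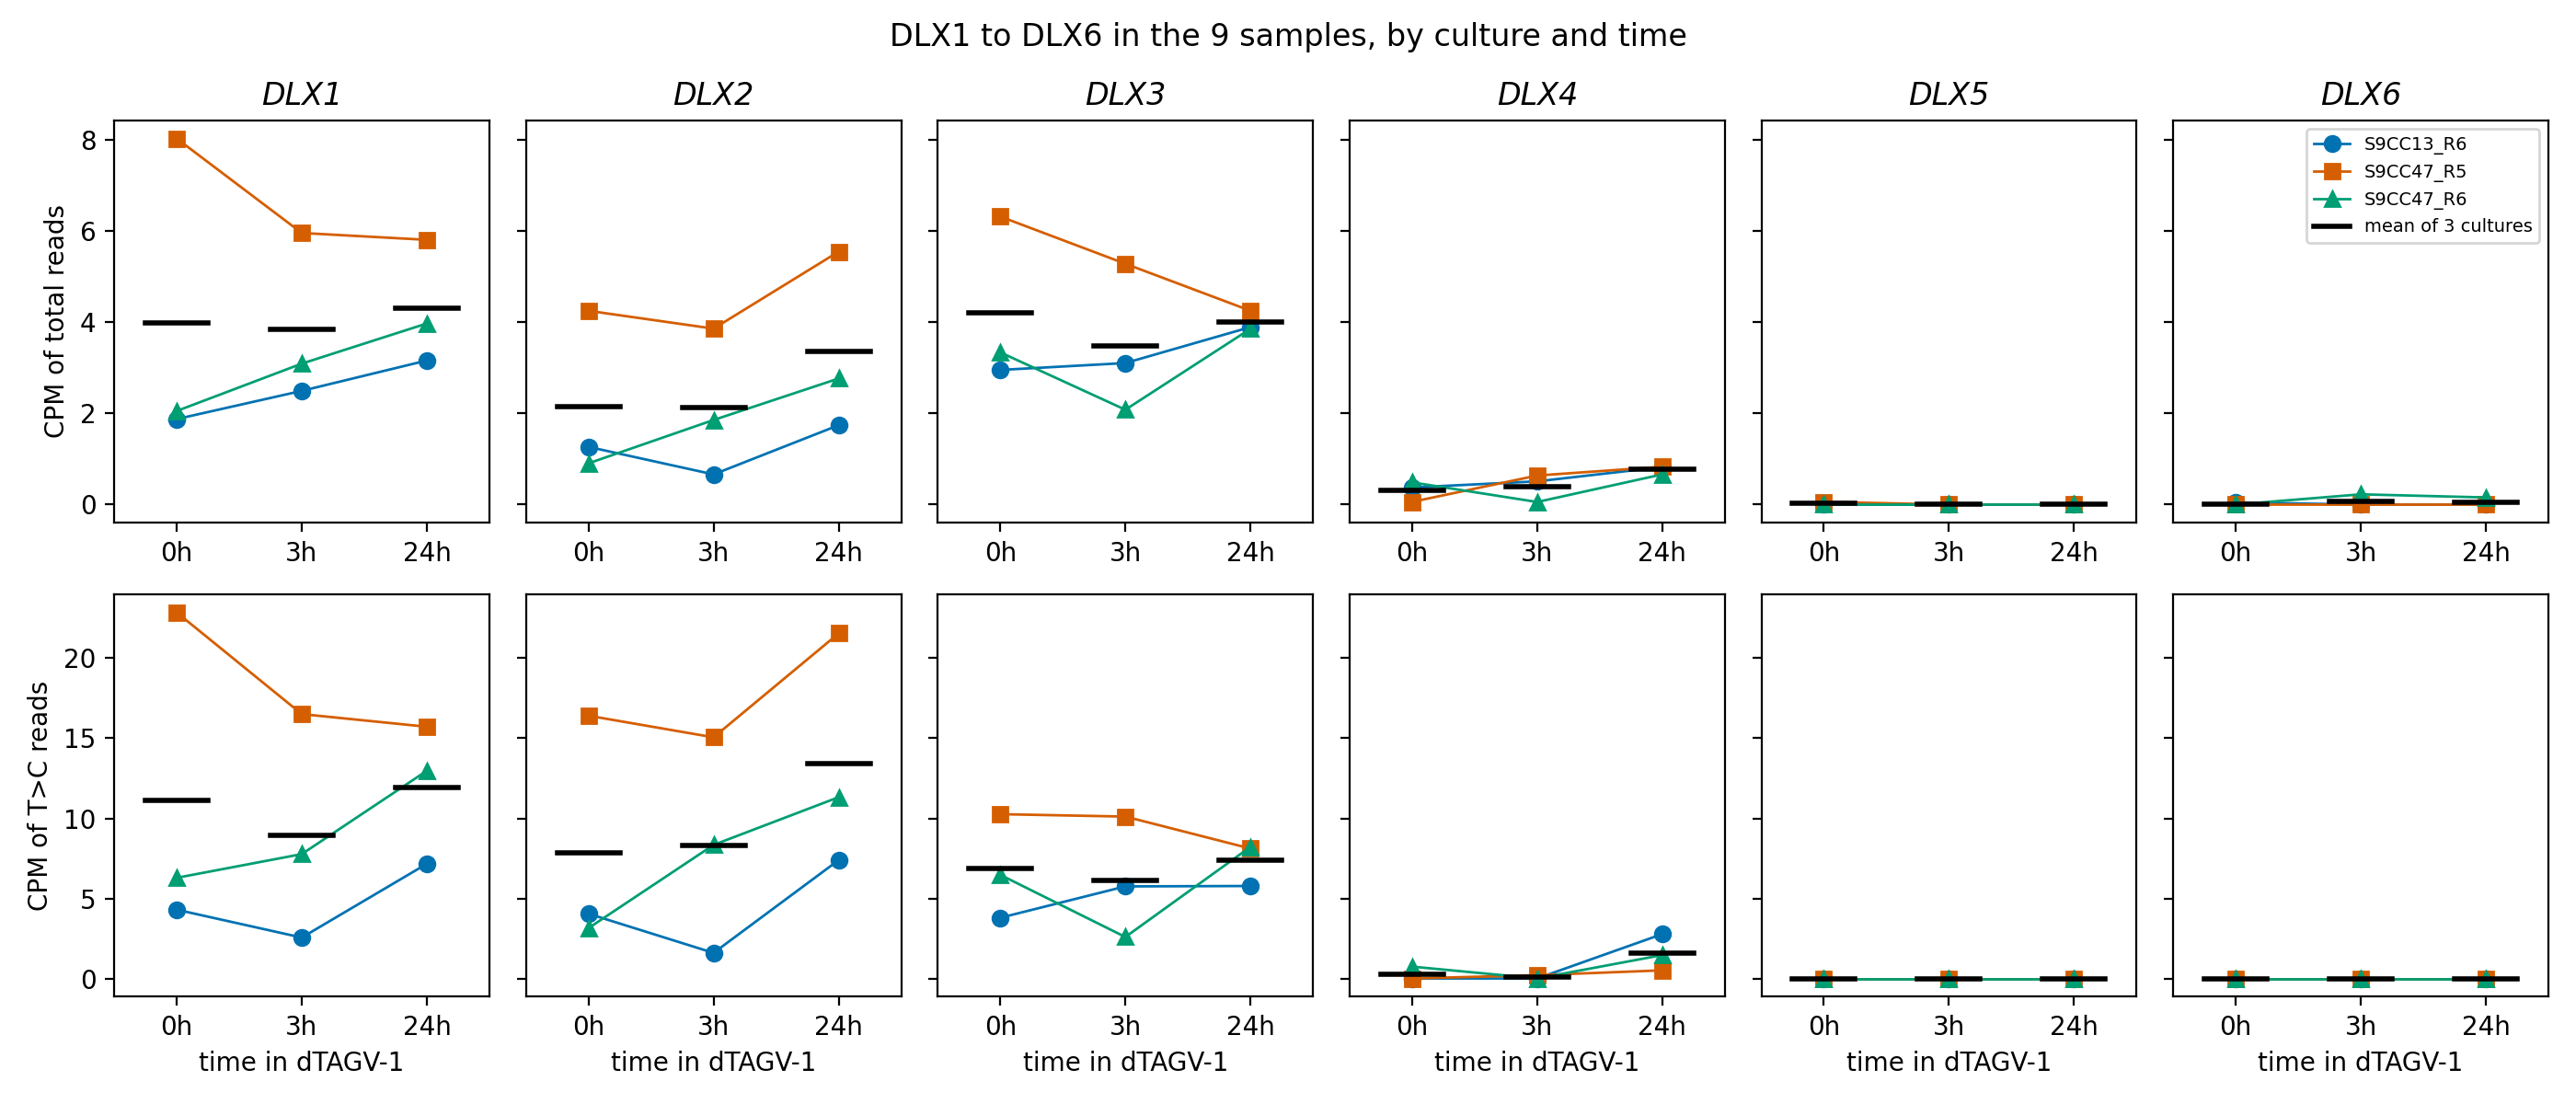
CPM of total reads (upper row) and of T>C reads (lower row) of DLX1 to DLX6 on the y axis against time in dTAGV-1, with a symbol and line for each of the 3 cultures and a black bar for their mean. S9CC47_R5 (squares) lies above both cultures of batch R6 for DLX1 and DLX2 at every time, and DLX5 and DLX6 lie at or near 0.

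DLX4, the neighbour of DLX3 (chr17:49968588-49974959, plus strand, 15045 bases from the 3′ end of DLX3), stayed under 1 CPM of total reads in all 9 samples and was not tested. Again with S9CC13_R6 first and S9CC47_R6 last, it had 8, 1 and 14 total reads untreated, 10, 17 and 1 after 3h and 18, 16 and 17 after 24h. It had 0, 0 and 4 T>C reads untreated, 0, 1 and 0 after 3h and 12, 2 and 8 after 24h. The 3 samples at 24h held 22 of the 27 T>C reads. When all genes with at least 1 count were fitted, the DLX4 log2 fold change at 24h against 0h was 2.58 in T>C reads (DESeq2 adjusted p = 0.731) and 1.5 in total reads (adjusted p = 0.294), so neither was called.

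DLX5 and DLX6, the lower jaw pair, were at or near 0 at this depth. DLX5 (chr7:97020396-97024950, minus strand) had 1 total read, in S9CC47_R5 at 0h, and 0 T>C reads in all 9 samples. DLX6 (chr7:97005553-97011040, plus strand) had 1 total read in S9CC13_R6 at 0h, 4 in S9CC47_R6 at 3h and 4 in S9CC47_R6 at 24h, and 0 T>C reads. DLX6 overlaps the antisense gene DLX6-AS1, and whether counting used strand is not given in the sources used here. A count of 0 allows up to 3 reads, which is 0.104 to 0.177 CPM of total reads and 0.548 to 0.958 CPM of T>C reads depending on the library. These limits and the intervals on shares below cover counting error only, since the reads carry no molecular identifiers.

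The comparison over time asked whether the family answered the loss of SOX9, in new RNA (T>C reads) and in all RNA (total reads). No member was called at either time. In DESeq2 fits of all genes with batch and 1 surrogate variable as terms, a gene was called at an adjusted p under 0.1. Of the 3 members tested, 0 were called in T>C reads between 3h and 0h, where 1.79% of the 12037 genes tested were called, 0 between 24h and 0h (4.98% of all genes) and 0 between 24h and 3h (1.14%). In total reads 0 of the 3 were called between 3h and 0h (1.89% of 11710 genes), between 24h and 0h (15%) and between 24h and 3h (5.39%). In all 6 comparisons, 0 of the 3 had an unadjusted p under 0.05, and edgeR called 0 as well.

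The estimates leave room for changes of moderate size. DLX1 T>C reads differed by -0.04 on the log2 scale at 3h (SE 0.366, 95% interval -0.76 to 0.68) and by -0.07 at 24h (interval -0.80 to 0.65). DLX2 T>C reads differed by 0.34 at 3h (SE 0.391, interval -0.42 to 1.11) and by 0.56 at 24h (interval -0.20 to 1.32, adjusted p = 0.598), the largest of the estimates over time in T>C reads against 0h. DLX3 T>C reads differed by -0.20 at 3h (SE 0.479, interval -1.14 to 0.74) and by 0.21 at 24h (interval -0.74 to 1.16). In total reads at 24h the estimates were 0.16 for DLX1, 0.48 for DLX2 and 0.00 for DLX3, with SEs of 0.281, 0.331 and 0.292. DLX2 was the member whose normalized reads were higher at 24h than at 0h in 3 of 3 cultures, in both kinds of reads.

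Depth limits these comparisons. Genes with a mean of 20 to 100 normalized T>C reads, the range that holds all 3 members, had a median SE of 0.345 at 24h against 0h, compared with 0.223 over all genes tested, and 110 of 3160 of them (3.48%) were called. The T>C estimates against 0h also moved with the fit, and over 9 alternatives each, 0 were called. That of DLX1 at 24h turned its sign without the surrogate variable (0.41), with the culture as a replicate block (0.38), without S9CC47_R5 (0.12) and without S9CC47_R6 (0.83). At 3h, leaving out S9CC47_R6 turned DLX2 to -0.56 and DLX3 to 0.30 and moved DLX1 to -0.53. DLX2 at 24h kept its direction and ran from 0.39 without S9CC13_R6 to 1.19 without S9CC47_R6, with 1.00 without the surrogate variable and 0.96 with the replicate block. DLX3 at 24h ran from 0.18 with edgeR to 0.69 without S9CC47_R5, and was 0.42 without S9CC47_R6. In total reads at 24h, over 8 alternatives each, DLX1 ran from -0.61 to 0.61, DLX2 from 0.17 to 0.78 and DLX3 from -0.33 to 0.47.

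**Figure D2:**
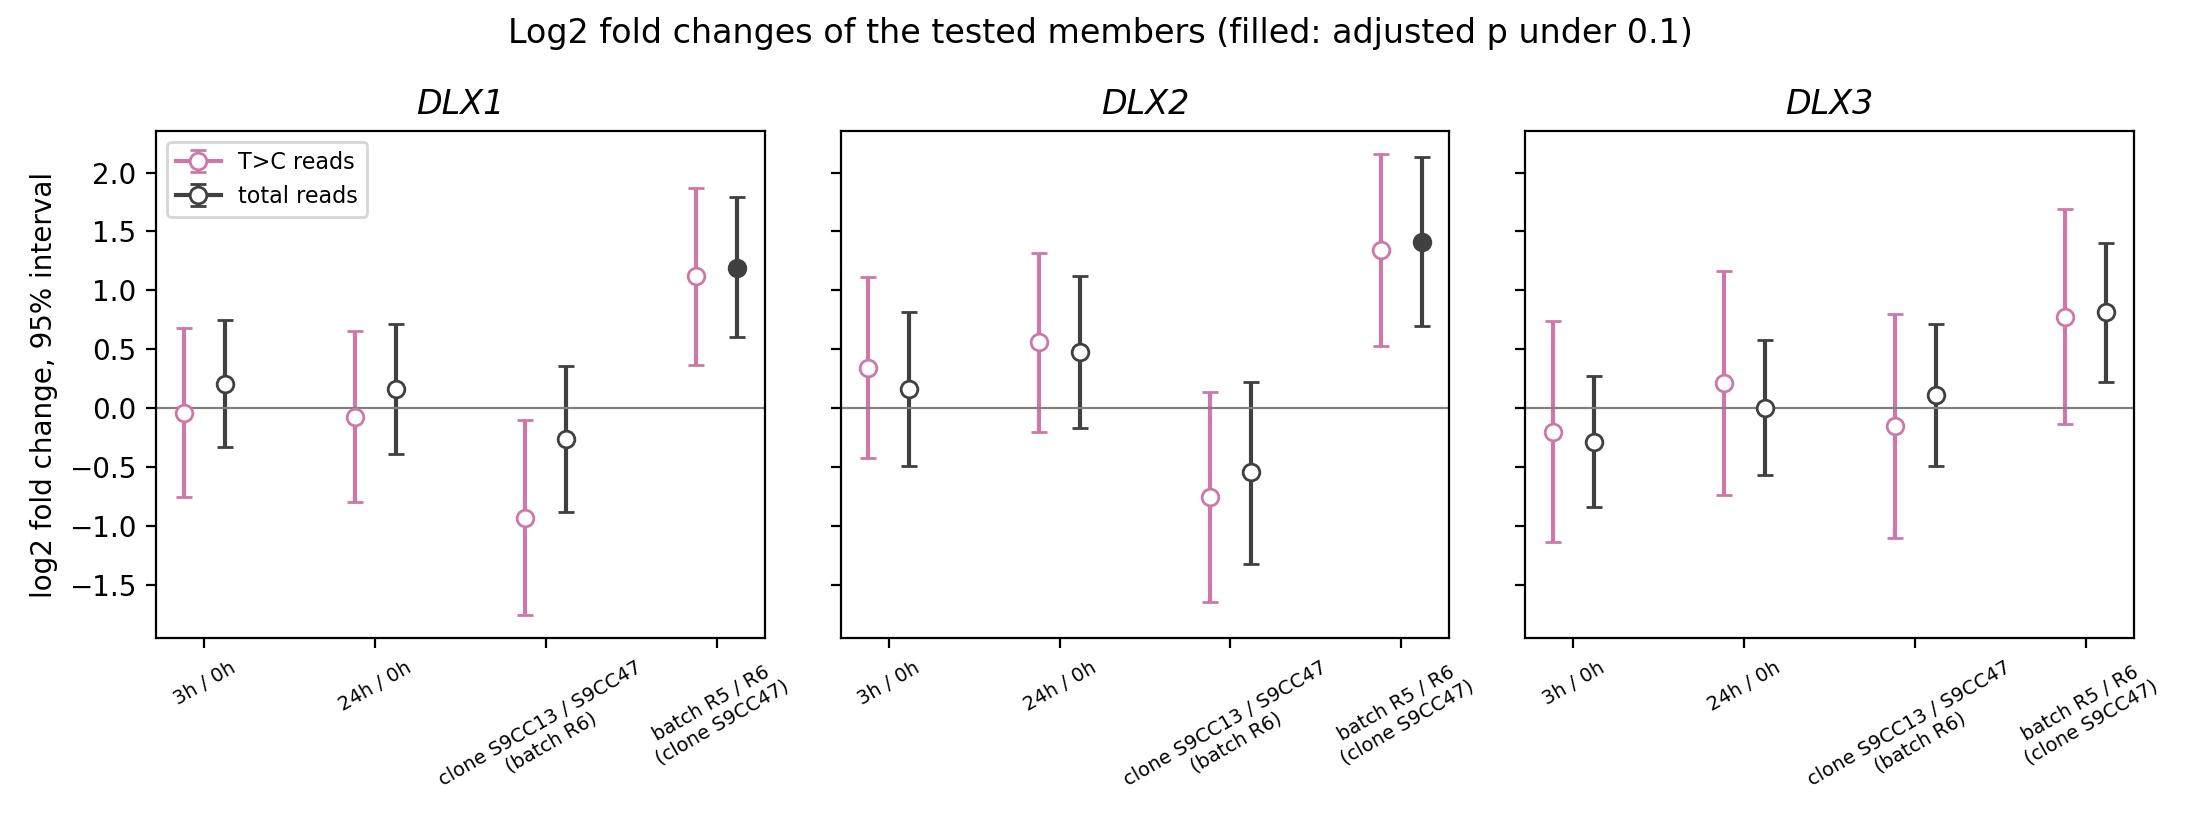
Log2 fold change with its 95% interval on the y axis for DLX1, DLX2 and DLX3 in 4 comparisons along the x axis, with T>C and total reads side by side. Intervals over time include 0 for all 3 genes, and the 2 filled points, DLX1 and DLX2 in total reads, are the batch R5 against R6 comparison.

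Between cultures, 2 members were called. Set against the culture of the same clone in batch R6, S9CC47_R5 had higher DLX1 and DLX2 in total reads, by 1.19 (SE 0.303, adjusted p = 0.00992) and 1.41 (SE 0.366, adjusted p = 0.0125) on the log2 scale in a DESeq2 fit with culture and time. These were 2 of the 3 members tested, beside 1.65% of all genes called in that comparison. The fold of S9CC47_R5 over S9CC47_R6 in CPM for DLX1 was 3.91 untreated, 1.93 after 3h and 1.46 after 24h, and for DLX2 4.70, 2.08 and 2.01. DLX3 was 0.81 higher (interval 0.23 to 1.40), which was not called (adjusted p = 0.231). The calls were not stable, since edgeR called DLX2 (adjusted p = 0.0947) and not DLX1 (adjusted p = 0.101). Leaving out the samples of 1 time gave 0 called, in fits with fewer samples to estimate the spread. DLX1 was then 0.80 without 0h, 1.28 without 3h and 1.5 without 24h, and DLX2 was 1.10, 1.56 and 1.61. Only without 0h were the estimates below those of the full fit.

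In T>C reads the same comparison gave 1.118 for DLX1 (95% interval 0.37 to 1.87, adjusted p = 0.28), 1.34 for DLX2 (interval 0.53 to 2.16, adjusted p = 0.141) and 0.77 for DLX3 (interval -0.14 to 1.69, adjusted p = 0.932). By DESeq2 0 of the 3 members were called (0.69% of all genes), by edgeR 0, and 2 had an unadjusted p under 0.05. Between clones S9CC13 and S9CC47 within batch R6, 0 of the 3 members were called in T>C reads (1.32% of all genes) or in total reads (3.38%), also by edgeR. The estimates there ran from -0.93 for DLX1 (T>C reads, interval -1.76 to -0.10, the 1 member with an unadjusted p under 0.05) to 0.11 for DLX3 (total reads, interval -0.49 to 0.71). The p-values of the culture comparisons measure the spread between libraries of a culture at different times and not the spread between differentiations.

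Marker sums ran alongside as follows. The 12 neural crest markers summed to 3686 to 4918 CPM in S9CC47_R5 and 3776 to 5377 in S9CC47_R6, and the 10 surface ectoderm markers to 0.708 to 2.33 and 0.449 to 1.09, with 0 of the 10 at 1 CPM in 3 or more samples. The 9 forebrain and neuron markers summed to 61.1 to 80.7 and 63.8 to 95.1 CPM, with GAD2 at 0. The ranges of the cultures overlapped for all 3 lists, but each range spans the 3 times, so overlap does not compare cultures at 1 time. Time by time (0h, 3h, 24h), the surface ectoderm sum was 0.708, 1.16 and 2.33 CPM in S9CC47_R5. It was 0.556, 0.449 and 1.09 CPM in S9CC47_R6, so S9CC47_R5 was higher at each, as for DLX1 and DLX2. At 24h the crest sum was 4918 and 5377 CPM in these cultures, and the forebrain and neuron sum 61.1 and 63.8 CPM, both lower in S9CC47_R5. Of the 11 crest markers tested, 1 was called between batches, the mesenchymal factor PRRX1, which was higher in S9CC47_R5 by 0.49 in T>C reads (DESeq2 adjusted p = 0.0961) and by 0.53 in total reads (adjusted p = 0.0109), the direction of DLX1 and DLX2, while the list median was -0.03 in both. Between clones within batch R6, PRRX1 was also called higher in S9CC13 in total reads (0.59, DESeq2 adjusted p = 0.00216). There DLX1 and DLX2 went the other way, at -0.26 and -0.55, and were not called. The part of these cells in the DLX difference was not tested. In such bulk libraries more DLX-expressing cells and more DLX RNA per cell cannot be told apart.

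Most DLX2 reads carried the label. Over the 9 samples, 375 of 490 DLX2 reads had a T>C conversion, a share of 76.5% (Wilson 95% interval 72.6% to 80.1%), and 45 of 11710 tested genes had a higher share. DLX1 followed with 408 of 781 reads (52.2%, interval 48.7% to 55.7%), above 89.3% of genes, and DLX3 with 263 of 771 (34.1%, interval 30.9% to 37.5%), above 64.5% of genes. The median gene had 26.8%, with quartiles at 16.6% and 40.5%. The counting intervals of the 3 members did not overlap, DLX1 and its neighbour DLX2 included. No library without 4sU was analysed here, so conversions from sequencing errors are not subtracted, and the part of the base composition of the reads in these shares was not tested.

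**Figure D3:**
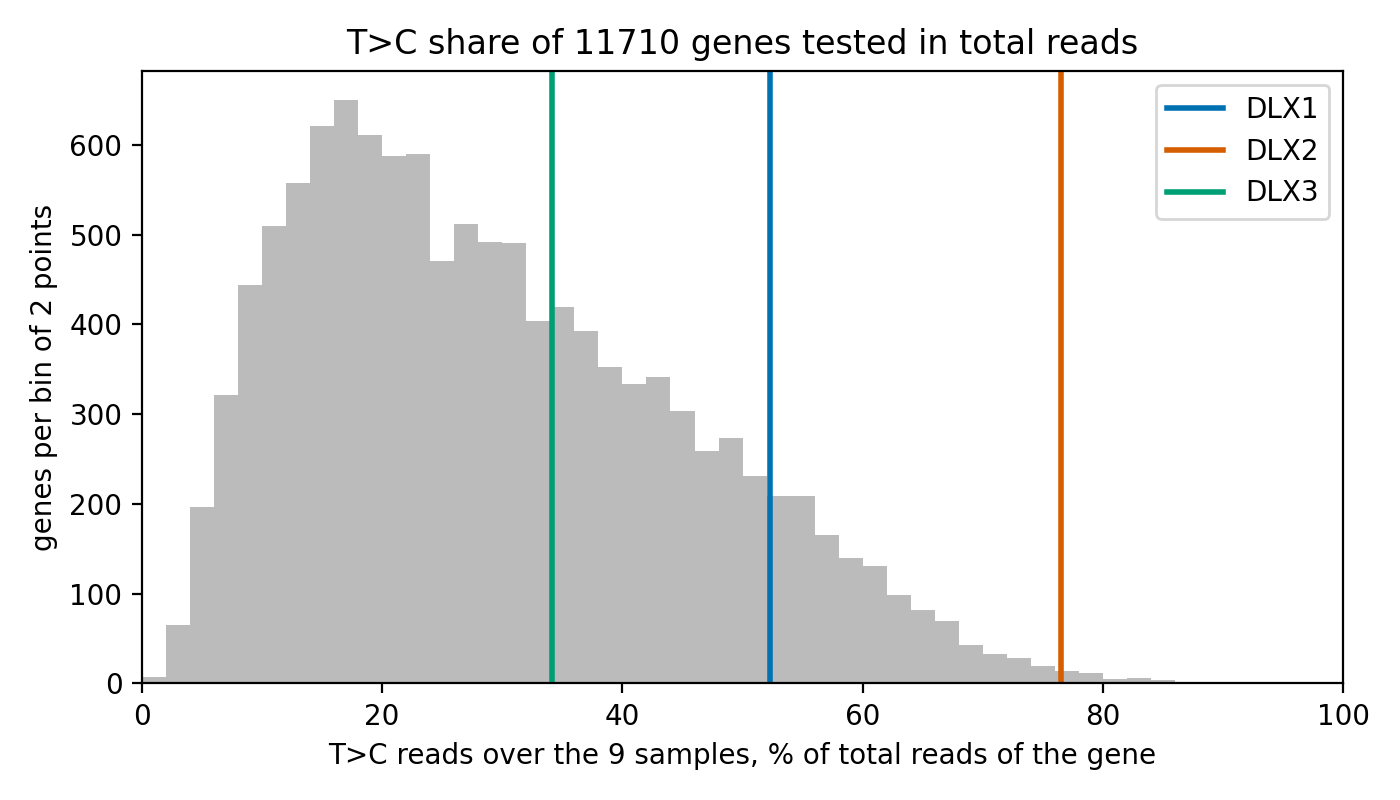
Number of genes (y axis) by the T>C share of their reads over the 9 samples (x axis, in bins of 2 percentage points), for the 11710 genes tested in total reads, with vertical lines at DLX1 (52.2%), DLX2 (76.5%) and DLX3 (34.1%). DLX2 lies in the right tail of the distribution.

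By sample, with cultures in the order used above, the DLX2 share was 59.3%, 77.8% and 65.4% untreated, 38.5%, 70.9% and 87.9% after 3h and 84.2%, 79.4% and 87.3% after 24h. The DLX1 share was 42.5%, 57.4% and 57.6% untreated, 16.3%, 50.3% and 49.1% after 3h and 44.9%, 55.4% and 69.6% after 24h. The low sample of both genes was S9CC13_R6 at 3h, where 8 of 49 DLX1 reads and 5 of 13 DLX2 reads carried a conversion, and the T>C share of that whole library was also the lowest of the 9 (15.9%). DLX3 ran from 23.8% to 45.5%, with a median of 32.7%. Each of the 3 genes was above the share of its library in 9 of 9 samples. The share of the median gene over the 9 samples, 26.8%, was also above the highest library share, 21.3%, so this position is common among genes.

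Over time, the DLX2 share was the one whose samples at 24h all lay above those at 0h. The DLX2 share had a mean of 67.5% ± 9.43 untreated and of 83.7% ± 3.97 after 24h (SD, n = 3), higher at 24h in 3 of 3 cultures, with p = 0.1 in the exact two-sided permutation test and p = 0.25 in the exact sign-flip test within cultures, the smallest values these designs allow. The DLX1 share was lower at 3h than at 0h in 3 of 3 cultures, by a mean of -13.9 percentage points (SD 10.6, exact permutation p = 0.3), and by -7.79 points without S9CC13_R6, the culture with the low sample. The DLX3 share was higher at 24h in 3 of 3 cultures, by 6.97 points (SD 1.79, exact permutation p = 0.4). Over the 3 members, 6 such comparisons with 0h were made, and none can reach 0.05. A DESeq2 fit of T>C against unconverted reads, which asks whether new RNA changed by another amount than older RNA, called 0 of the 3 members at 3h (0.333% of all genes) and at 24h (0.0171%), with 0 at an unadjusted p under 0.05 and 0 called by edgeR. Its largest member estimate was 1.10 for DLX2 at 24h (95% interval -0.30 to 2.5), which was 1.73 without S9CC47_R5.

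**Figure D4:**
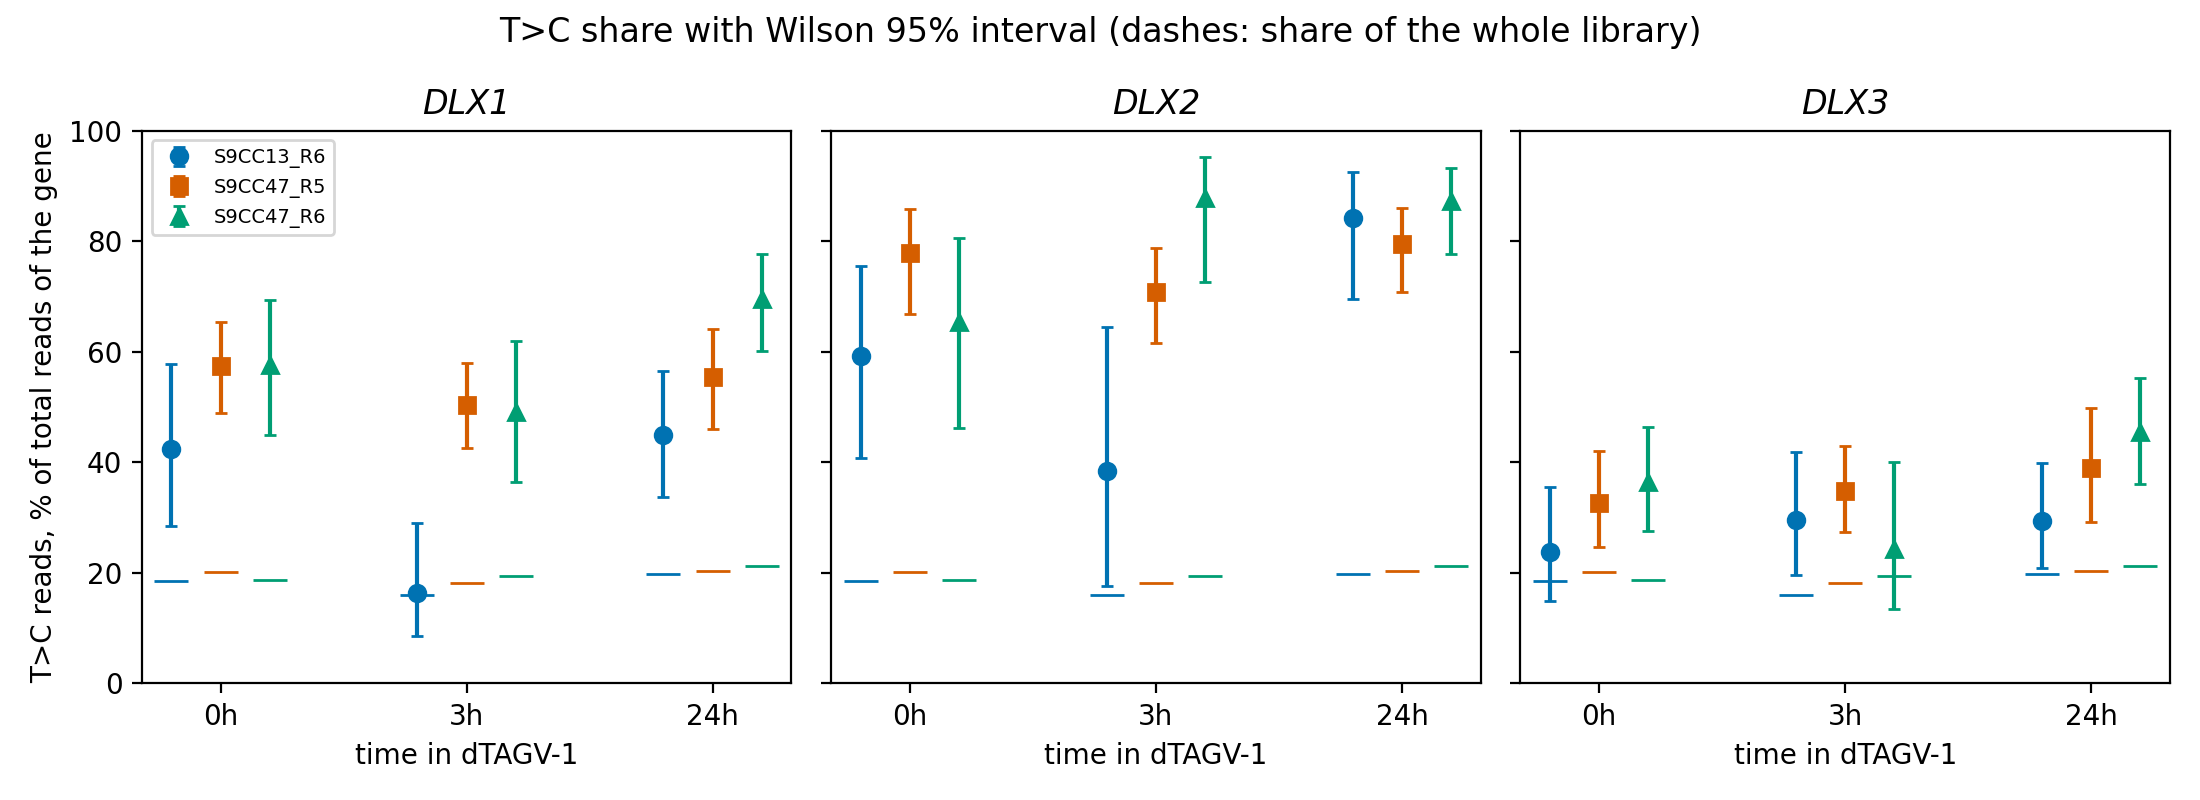
T>C reads as a percent of total reads of DLX1, DLX2 and DLX3 (y axis) at each time (x axis) in the 3 cultures, with Wilson 95% intervals and, as dashes, the share of the whole library. DLX2 runs from 38.5% to 87.9% and every point of the 3 genes lies above its library, with S9CC13_R6 at 3h the lowest point for DLX1 and DLX2. The median gene, at 26.8% over the 9 samples, is above every library too.

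Across the 9 samples, the neighbours DLX1 and DLX2 had alike profiles in log2 normalized T>C reads. Their Pearson r was 0.942 over n = 9 samples that share 3 cultures and their depth, which ranked DLX2 as number 2 of 8677 genes for DLX1, and DLX1 as number 5 for DLX2. DLX3 correlated with DLX1 at 0.635 and with DLX2 at 0.468. Among genes averaging 50 or more normalized T>C reads, those most like DLX1 were FOXJ3 (r = 0.966), LCLAT1 (0.938) and AHCY (0.934), those most like DLX2 were YWHAZ (0.963), SERTAD2 (0.953) and TNFRSF10D (0.95), and those most like DLX3 were UQCR10 (0.904), SON (0.903) and PI4KA (0.891). With 9 points and 8677 genes, such values are a description only.

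Genes around the family in its known pathways were read in the same fits. Of 10 genes of endothelin signalling, which switches on DLX5 and DLX6 in the lower jaw, 9 were tested in T>C reads, and at 24h against 0h 0 were called lower and 1 higher, GNAQ (0.29, DESeq2 adjusted p = 0.0797), a G protein subunit. Of all genes, 4.98% were called in that comparison. The receptor EDNRA was present at 13.8 to 22.2 CPM of total reads and was not called, and its ligand EDN1 lay between 0.0518 and 1.32 CPM. The list's median log2 fold change at 24h was -0.15, beside 0.00 over all genes. At 3h 0 of the 9 were called in either direction. In total reads at 24h GNAQ was again higher (0.28) and ECE1, the enzyme that matures endothelin, was lower (-0.29, adjusted p = 0.067). GNAQ in both kinds of reads and ECE1 lost the call whichever culture was left out, and without S9CC13_R6 the estimates were 0.17 and 0.0912 for GNAQ and -0.18 for ECE1.

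Of 24 jaw patterning factors linked to DLX genes, 16 were tested, and those not tested included HAND1, at 0 reads in all samples, and HAND2, at 0 to 0.183 CPM, the latter known to act downstream of DLX5 and DLX6. In T>C reads at 24h 7 rose and 2 fell, where 4.98% of all genes were called, with a list median of 0.17 beside 0.00 over all genes. Marker lists moved over the same time. Of 11 crest markers tested in T>C reads, 5 rose and 0 fell at 24h (median 0.25), TWIST1 and ALX1 of the jaw list among them. SOX9, the gene of the depleted protein, was also 1 of the 5, and it rose by 1.15 in T>C and in total reads. The summed level of the list in total reads was 3686 to 3813 CPM at 0h and 4918 to 5377 CPM at 24h, without overlap. The most read gene of that sum was SOX9, at 736 to 1862 CPM over the 9 samples. No sum was taken without SOX9. Of 3 osteoblast and chondrocyte markers tested, 2 fell, COL2A1 and COL9A1. The part of these cells in the jaw list was not tested. MSX1, a homeodomain repressor that pairs with DLX proteins, rose by 1.20 (SE 0.0779, adjusted p = 7.2e-50), from 1437, 1767 and 1581 CPM of T>C reads in the 3 untreated cultures, in the order used above, to 3351, 4123 and 3753 CPM, with no overlap between times. The Notch ligand JAG1 rose by 1.23, the Notch effector HEY1 by 0.79, the growth factor BMP4 by 0.69, and the homeobox gene ALX1 by 0.36. TWIST1, a mesenchymal crest factor, rose by 0.44, while the growth factor BMP7 fell by 0.74 and the forkhead gene FOXC1 by 0.62. At 3h against 0h, where 1.79% of all genes were called, 4 rose, namely MSX1 (0.70), BMP4 (0.70), JAG1 (0.64) and POU3F3 (0.50), and 1 fell, BMP7 (-0.44).

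Leaving out 1 culture kept the direction of every one of these called genes, but it ended some calls. These fits had fewer samples to estimate the spread, and the batch term fell away only without S9CC47_R5. A lost call thus does not by itself show that a gene depended on the culture left out. At 24h JAG1 stayed at 1.16 to 1.36 and BMP7 at -0.83 to -0.65. At 24h MSX1 was called whichever culture was left out, whereas without S9CC13_R6 the calls of ALX1, BMP7, FOXC1, HEY1, JAG1, MSX2 and TWIST1 were lost, and without S9CC47_R6 those of ALX1, BMP4, BMP7, FOXC1, JAG1, MSX2 and TWIST1. Without S9CC47_R5 those of ALX1 and MSX2 were lost. Some sizes moved as well, since without S9CC47_R6 TWIST1 was 0.17 and ALX1 0.57, and without S9CC13_R6 HEY1 was 0.49. At 3h MSX1 and BMP4 were called whichever culture was left out, BMP4 at 1.11 without S9CC47_R6, while BMP7, JAG1 and POU3F3 each lost the call whichever was left out. Of the other alternatives, the ALX1 call at 24h was lost with all genes of at least 1 count (adjusted p = 0.11) and with total-read size factors (adjusted p = 0.104). At 3h that of BMP7 was lost without the surrogate variable (adjusted p = 0.202) and that of JAG1 with total-read size factors (adjusted p = 0.146).

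MSX2 was called both over time and between cultures. Its T>C reads were 7.58, 11.1 and 3.33 CPM untreated, cultures ordered as before, and 8.32, 24.6 and 8.77 CPM after 24h. It rose by 1.19 at 24h against 0h (SE 0.403, adjusted p = 0.073), a call that was lost whichever culture was left out, where the estimate ran from 0.13 without S9CC47_R6 to 1.42 without S9CC47_R5. It was also lost with the culture as a replicate block (0.92, adjusted p = 0.202), without the surrogate variable (0.83) and with all genes of at least 1 count (adjusted p = 0.111). S9CC47_R5 stood 1.79 above S9CC47_R6 in T>C reads (adjusted p = 0.00408) and 1.73 above it in total reads (adjusted p = 0.000136), in the same direction as DLX1 and DLX2. In that comparison POU3F3 was lower in S9CC47_R5 in both kinds of reads (-0.45 and -0.48) and FOXC1 in total reads (-0.39). Of 6 alternatives, MSX2 was called in 4 for each kind of reads, POU3F3 in 3 for T>C and 4 for total reads, and FOXC1 in 3.

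**Figure D5:**
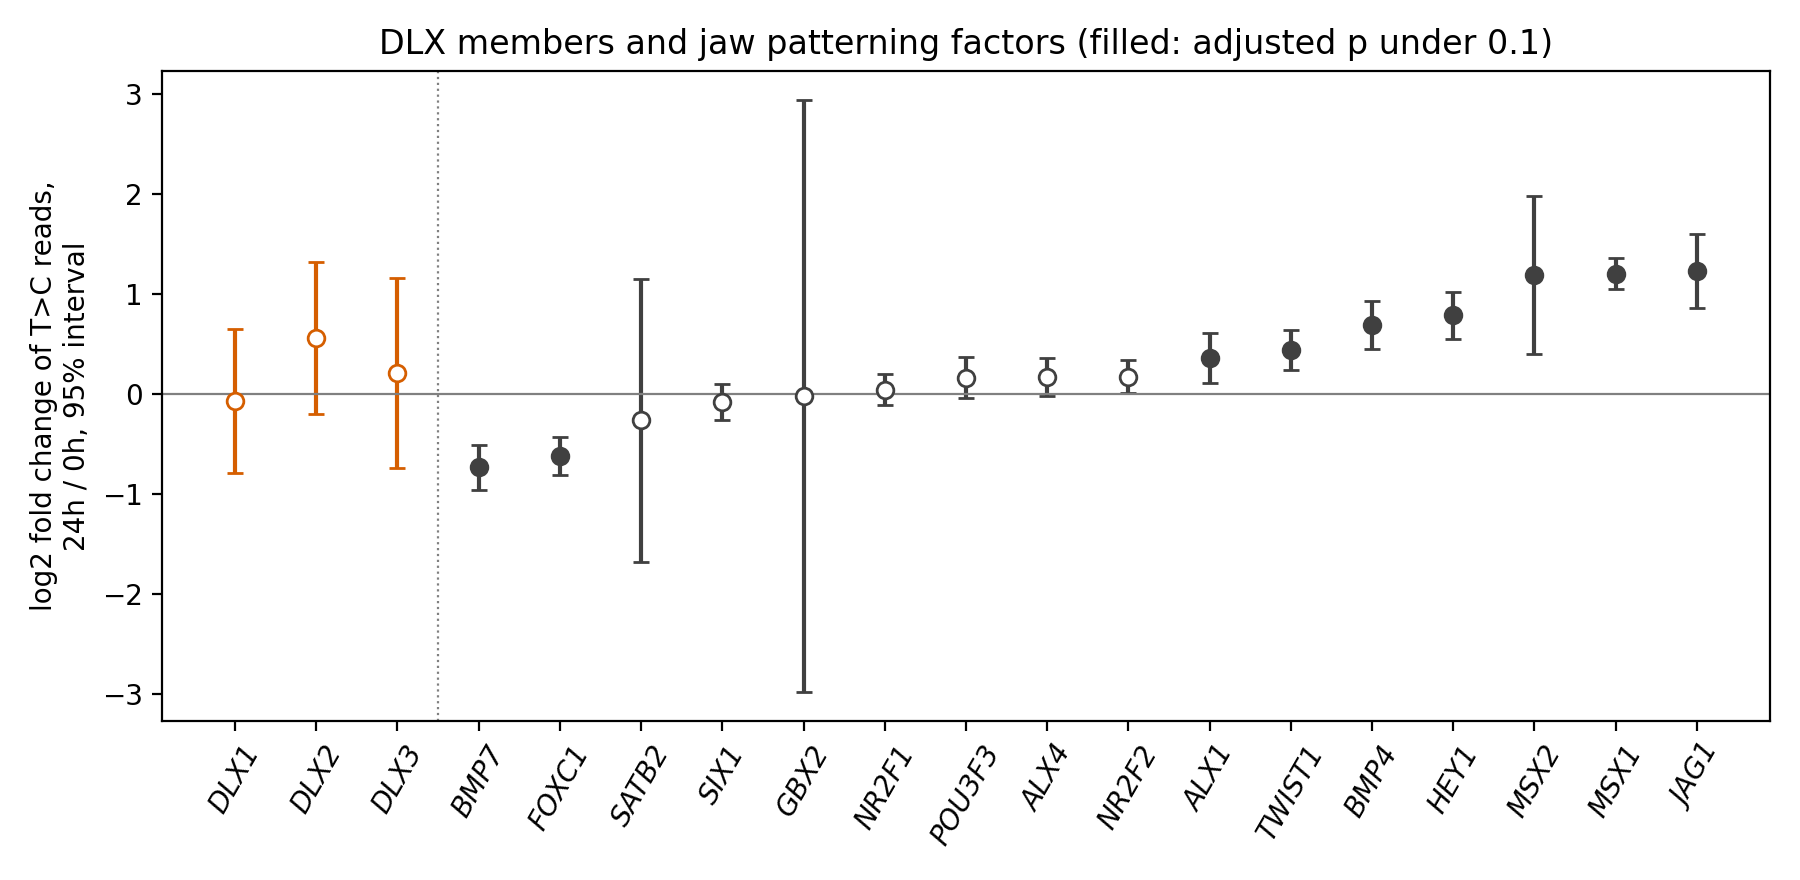
Log2 fold change of T>C reads at 24h against 0h with its 95% interval (y axis) for the 3 tested DLX members, left of the dotted line, and the 16 tested jaw patterning factors (x axis, ordered by value). Filled points were called: MSX1 (1.20), JAG1 (1.23) and 5 more rose, BMP7 (-0.74) and FOXC1 (-0.62) fell, and the DLX members have intervals across 0.

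Among 8 proteins that bind DLX factors, all 8 were tested in T>C reads, and MSX1 and MSX2 were the 2 called at 24h, both higher, with MSX1 also called at 3h. Both are the genes already counted in the jaw list, so this list adds no further call. Of 10 bone and cartilage genes that DLX factors are known to regulate, 6 were tested in T>C reads, and at 24h 2 rose and 1 fell. For both lists, the share of all genes called in T>C reads at 24h was 4.98%. The collagen gene COL1A1 rose by 1.11 and SOX9 itself by 1.15, and the cartilage collagen COL2A1 fell by 1.10. COL1A1 lost its call whichever culture was left out, and COL2A1 lost it without S9CC47_R6 (-0.90). At 3h SOX9 was the 1 gene of the bone and cartilage list called (1.79% of all genes), rising by 0.77. That call was lost without S9CC47_R6, in a fit with fewer samples, though the estimate stayed at 0.78. Of 10 interneuron genes downstream of DLX1 and DLX2 in the forebrain, 2 were tested, with 0 called in T>C reads and 2 called higher in total reads at 24h, LHX6 (0.98) and NRP2 (0.67), where 15% of all genes were called. LHX6 was also called higher in total reads at 3h (1.41, adjusted p = 0.00847), where 1.89% of all genes were. LHX6 lost both calls whichever culture was left out (0.37 at 24h without S9CC13_R6), and NRP2 lost it without S9CC13_R6 or S9CC47_R6.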

How the data were processed

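The authors deposited 2 tables of raw counts per gene symbol, one of total reads and one of those carrying a conversion (T>C reads). Per the authors' methods, only read 1 was used, trimmed with skewer, stripped of poly(A) and mapped and counted with slamdunk, and the labels name hg38. Replicates were not pooled. All 9 value columns of each table were used.

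The members and gene lists were chosen with earlier results of these data known. Protein-coding genes (GENCODE and RefSeq, by symbol) with 1 CPM in 3 or more samples entered DESeq2 1.42.0 (R 4.3.3) with time, batch and 1 surrogate variable (sva 3.50.0), all 9 samples in 1 fit and independent filtering off, after the study's methods. Calls had a Benjamini-Hochberg adjusted p under 0.1 over all genes tested. Culture contrasts used culture and time. T>C and unconverted counts were compared by an interaction with sample as a block. Normalized reads are counts over DESeq2 size factors, and logs of single samples used a pseudocount of 1. Alternatives were edgeR 4.0.16 with TMM, TMM in DESeq2, all genes with at least 1 count, no surrogate variable, total-read size factors, the culture as a replicate block and leaving out each culture or time. Fits that left out a culture or a time had fewer samples to estimate the spread, so a call lost there can come with an unchanged estimate. Genes named were the 6 members, called genes of the lists, list genes not tested or central to the pathway and, for each tested member, the 3 genes most alike in T>C reads. Scripts were tested on simulated data. Some genes of the lists are not reported here.

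The cultures pair the samples across times, as the clone and batch in the titles give them. The mean correlation of the deviations of same-culture samples from their time means was 0.131 in T>C reads and 0.273 in total reads.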

Additional observations from a re-analysis of the deposited data

Results flagged for a closer look

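In some comparisons with 0h, DLX1 and DLX3 moved in opposite directions in the 2 batches, and none of these differences between batches was tested. The cases were picked because S9CC47_R5 opposed both cultures of batch R6. They were searched for in the 3 tested members, both kinds of reads and both times. The log2 change of normalized reads with a pseudocount of 1 is given for the culture of batch R5 and then for S9CC13_R6 and S9CC47_R6. DLX1 T>C reads at 24h against 0h changed by -0.54 in S9CC47_R5 and by 0.70 and 0.99 in the batch R6 cultures. DLX1 total reads changed by -0.40 at 3h against 0.42 and 0.49, and by -0.48 at 24h against 0.71 and 0.86. DLX3 at 24h changed by -0.34 in T>C reads against 0.57 and 0.31, and by -0.58 in total reads against 0.36 and 0.13. Its T>C reads at 0h and 24h were few, 35 and 32 in S9CC47_R5, 15 and 25 in S9CC13_R6, and 35 and 45 in S9CC47_R6. Batch R5 held 1 culture, the one with the highest DLX1 at 0h.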

How the results depend on the processing

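All 63 alternatives of the counts of members called over time gave 0 members, the replicate block included, and 0 of 138 alternatives of the members' log2 fold changes over time were called. With culture as a replicate block, DLX1 T>C reads at 24h turned to 0.38 and DLX3 total reads to -0.0214, and no other member value against 0h turned under the block. Without the surrogate variable they turned to 0.41 and -0.0196. DLX3 total reads at 24h, near 0, were also -0.0152 with edgeR, -6.73e-06 with TMM and -0.00122 with all genes of at least 1 count. The 2 members called between batches in total reads became 1 with edgeR and 0 without any 1 time (lowest 0, highest 0). Leaving out each culture, log2 values of T>C reads at 3h ran from -0.56 to 0.56 for DLX2 and from -0.52 to 0.30 for DLX3, and at 24h from -0.32 to 0.83 for DLX1. Those of total reads at 3h ran from -0.0613 to 0.47 for DLX1 and from -0.46 to 0.30 for DLX2, and at 24h from -0.61 to 0.61 for DLX1 and from -0.33 to 0.47 for DLX3. Between clones, leaving out each time, DLX3 ran from -0.61 to 0.16 in T>C and from -0.10 to 0.27 in total reads. T>C against unconverted reads ran from -0.42 to 0.58 for DLX2 and from -0.14 to 0.52 for DLX3 at 3h, and from -0.0863 to 0.29 for DLX1 at 24h. The DLX2 share difference at 3h turned to 7.8 points with cultures of at least 20 reads and to 0.0944 as a multiple of the library share, and ran from -13.9 to 7.8 points without each culture. That of DLX3 turned to 0.0552 as such a multiple and ran from -5.05 to 3.87 points. The causes were not tested.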
